A study of Homo sapiens with 3 samples.

Results

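The 10 genes described here are the core of the BCL2 family, which controls the mitochondrial route to apoptosis. They were chosen by name: the anti-apoptotic BCL2, BCL2L1 and MCL1, the pore-forming effectors BAX and BAK1, and the BH3-only genes BBC3, PMAIP1, BCL2L11, BID and BIK. All 10 were found among the 33423 genes listed in 3 count tables. The tables came from Drop-seq, a droplet method that tags the 3′ end of each captured transcript with a cell barcode and a unique molecular identifier (UMI). Each table is 1 library of 1 prostate cancer cell line, so no comparison has a replicate check and no p-value is given. LNCaP–ENZ168 is LNCaP, a line from a lymph node metastasis, after 10 µM enzalutamide for 168 h. VCaP parental is VCaP, a line from a vertebral metastasis, after the vehicle, 0.1% DMSO, for 48 h. VCaP–ENZ48 is the same line after 10 µM enzalutamide for 48 h. The labels call both lines sensitive. Enzalutamide blocks the androgen receptor.

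BCL2 family proteins decide whether the outer mitochondrial membrane stays intact. The effectors BAX and BAK (from BAK1) form pores that release cytochrome c, the anti-apoptotic proteins bind and restrain them, and the BH3-only proteins either occupy the anti-apoptotic proteins or activate the effectors. Much of this control acts on the proteins (MCL-1 is short-lived, BID is cleaved, BAD is phosphorylated), which transcript counts do not measure.

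Of the 10 members, 8 had a RefSeq promoter sequence (GRCh38.p14) of 300 bases, from 250 before to 50 after the gene's start, while MCL1 and BIK did not. The 3 shown are those of PMAIP1, the member that was at least 1.5-fold lower in VCaP–ENZ48 than in VCaP parental, of BAX, whose interval also lay below 0, and of BID, whose CPM (UMIs of the gene per 1000000 UMIs of the library) was nearly equal in the 3 libraries. Capitals mark the GC box (GGGCGG) and the E-box (CACGTG), searched on both strands, and no marked words overlapped.
PMAIP1, chr18:59899746-59900045, plus strand: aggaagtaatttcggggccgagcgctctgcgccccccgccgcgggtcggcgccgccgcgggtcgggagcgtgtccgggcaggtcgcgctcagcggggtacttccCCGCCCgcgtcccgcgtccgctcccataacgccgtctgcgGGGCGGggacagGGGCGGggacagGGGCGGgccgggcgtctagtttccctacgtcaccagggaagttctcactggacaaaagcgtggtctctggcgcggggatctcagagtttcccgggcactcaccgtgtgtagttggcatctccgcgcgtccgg
BAX, chr19:48954625-48954924, plus strand: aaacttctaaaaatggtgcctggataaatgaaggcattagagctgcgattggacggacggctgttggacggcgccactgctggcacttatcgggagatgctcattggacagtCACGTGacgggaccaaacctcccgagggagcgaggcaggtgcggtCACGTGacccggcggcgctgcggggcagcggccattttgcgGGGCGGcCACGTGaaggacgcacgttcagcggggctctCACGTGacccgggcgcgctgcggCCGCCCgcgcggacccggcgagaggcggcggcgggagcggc
BID, chr22:17774420-17774719, minus strand: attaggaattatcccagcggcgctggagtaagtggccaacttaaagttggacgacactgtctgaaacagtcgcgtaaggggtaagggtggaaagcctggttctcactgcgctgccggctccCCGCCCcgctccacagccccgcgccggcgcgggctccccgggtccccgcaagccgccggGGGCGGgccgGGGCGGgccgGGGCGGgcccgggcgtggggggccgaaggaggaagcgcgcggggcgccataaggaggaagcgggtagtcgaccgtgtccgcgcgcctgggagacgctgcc
PMAIP1 and BID each held 4 GC boxes and no E-box, and BAX held 2 GC boxes and 4 E-boxes. BCL2L11 held 3 GC boxes, BAK1 held 2 and BBC3 held 1 E-box. Neither word was found for BCL2 or BCL2L1. A GC box was thus found for 5 of 8 members, beside 44.6% of 27305 promoters of the same length, and an E-box for 2 of 8, beside 7.43%. The median GC content was 69% for the 8 member promoters and 58.3% for all promoters, and the shares were not matched for it. The cAMP response element TGACGTCA (1.98% of promoters), the androgen receptor half-site AGAACA (14.9%) and a set of E2F words (TTTCCCGC, TTTGGCGC, TTTCGCGC, TTTGCCGC, 3.33%) were found for 0 of 8. These are matches of letters and not shown to be bound sites.

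The libraries held 1000 barcodes each, of which 944, 997 and 947 were kept for LNCaP–ENZ168, VCaP parental and VCaP–ENZ48. Their median depths were 5389, 17817 and 11224 UMIs per cell. ERG, which VCaP expresses through a fusion, had 0 UMIs in LNCaP–ENZ168 and levels of 105 and 57.1 CPM in VCaP parental and VCaP–ENZ48. The prostate gene HOXB13 was between 189.9 and 389.8 CPM in all 3, and KLK3, the PSA gene, was at 7.63 and 10.9 CPM in the VCaP libraries beside 1554 and 3053 CPM of its paralog KLK2. In LNCaP–ENZ168 the order was reversed, with KLK3 at 91.9 CPM and KLK2 at 27.1 CPM. Whether reads of these related genes were split or misassigned was not tested, so their values are uncertain. Of 11 markers of immune, stromal, endothelial, basal and red cells, 9, 5 and 7 were at 0 in the 3 libraries, in the same order, and the list summed to 3.64, 0.974 and 1.40 CPM. Transcripts of 97 S and G2M phase genes differed between the VCaP libraries, with 15093 CPM in VCaP parental and 2862 CPM in VCaP–ENZ48, beside 6347 CPM in LNCaP–ENZ168. Barcodes ending in an unresolved base made up 212, 860 and 869 of the 1000, and 0 barcodes were shared between libraries.

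Levels below are CPM over the summed cells of a library, with exact Poisson 95% intervals. Because each UMI stands for 1 transcript end, the values do not grow with transcript length, though priming may differ between genes, and transcript isoforms (such as the long and short forms of BCL2L1) are not told apart. All intervals cover counting error only. Together the 10 genes had 1702 UMIs (270 CPM) in LNCaP–ENZ168, 2774 (142 CPM) in VCaP parental and 2411 (169 CPM) in VCaP–ENZ48. A kept cell held a median of 1, 2 and 2 family UMIs, respectively.

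MCL1, which encodes the short-lived guardian that restrains BAK, was the leading anti-apoptotic transcript in every library. It reached 101.5 CPM (93.8 to 109.7) in LNCaP–ENZ168, 22.3 CPM (20.2 to 24.5) in VCaP parental and 36.6 CPM (33.6 to 39.9) in VCaP–ENZ48. None of these intervals overlapped, and MCL1 made up 86.9%, 75.9% and 78.8% of the anti-apoptotic UMIs. In a later GENCODE release, the MCL1 gene (chr1:150560895-150579738, minus strand, GRCh38) shares exonic sequence with ADAMTSL4 on the other strand and ADAMTSL4-AS1 on its own. Some reads may therefore not be assigned with certainty, which was not tested. BBC3 shares exonic sequence with MIR3191 on its own strand, and BCL2L1, BAK1 and BCL2L11 with genes on the other strand only. BCL2L1, the gene of BCL-xL, stood at 12.04 CPM (9.48 to 15.1) in LNCaP–ENZ168, 6.41 CPM (5.33 to 7.63) in VCaP parental and 9.65 CPM (8.11 to 11.4) in VCaP–ENZ48. The VCaP parental level was the lowest, and the intervals of the enzalutamide libraries overlapped. BCL2, the founding member, was rare, with 21 UMIs (3.33 CPM) in LNCaP–ENZ168, 13 UMIs (0.666 CPM) in VCaP parental and 3 UMIs (0.210 CPM) in VCaP–ENZ48. Only the LNCaP–ENZ168 interval, 2.06 to 5.08 CPM, stood clear of the others.

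The effectors were sparse next to MCL1. BAX had 11.9 CPM (9.34 to 14.9) in LNCaP–ENZ168, 8.45 CPM (7.21 to 9.85) in VCaP parental and 5.87 CPM (4.69 to 7.27) in VCaP–ENZ48. LNCaP–ENZ168 and VCaP–ENZ48 were clear of each other, and the VCaP intervals overlapped by a narrow margin. BAK1 had 19, 30 and 16 UMIs, or 3.01, 1.54 and 1.12 CPM, for LNCaP–ENZ168, VCaP parental and VCaP–ENZ48. Its VCaP intervals overlapped widely (1.04 to 2.20 and 0.639 to 1.82 CPM).

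Among the BH3-only members, BID and BIK were the most abundant in each library. BID, whose protein links death receptors to mitochondria once cleaved by caspase-8, was nearly equal when scaled by total UMIs, at 45.8 CPM (40.7 to 51.4) in LNCaP–ENZ168, 45.7 CPM (42.8 to 48.8) in VCaP parental and 46.7 CPM (43.2 to 50.4) in VCaP–ENZ48. Other scalings, given with the comparisons, moved its ratios below 0. BIK, whose protein resides largely at the endoplasmic reticulum, was highest in VCaP–ENZ48 at 54.7 CPM (50.9 to 58.7), against 34.6 CPM (32.1 to 37.4) in VCaP parental and 38.6 CPM (34.0 to 43.8) in LNCaP–ENZ168. PMAIP1, which encodes NOXA, a partner of MCL-1, spanned 29.3 CPM (25.2 to 33.8) in LNCaP–ENZ168, 14.6 CPM (12.9 to 16.4) in VCaP parental and 5.80 CPM (4.62 to 7.20) in VCaP–ENZ48. No PMAIP1 interval overlapped another. BCL2L11, the gene of BIM, which binds all the anti-apoptotic proteins, was 22.3 CPM (18.8 to 26.3) in LNCaP–ENZ168 and nearly equal in the VCaP libraries at 6.61 CPM (5.52 to 7.85) and 6.43 CPM (5.19 to 7.89). BBC3, the gene of PUMA and a p53 target, had 11, 25 and 21 UMIs for LNCaP–ENZ168, VCaP parental and VCaP–ENZ48, or 1.74, 1.28 and 1.47 CPM, with overlapping intervals throughout.

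The order of the members therefore differed between libraries. In LNCaP–ENZ168 MCL1 came first, followed by BID and BIK, whose intervals overlapped, and then PMAIP1 and BCL2L11, which also overlapped. In VCaP parental the order was BID, BIK, MCL1 and PMAIP1, each clear of the next, and BAX overlapped BCL2L11. In VCaP–ENZ48 BIK came before BID and MCL1, each clear of the next, while BCL2L11, BAX and PMAIP1 could not be ordered.

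**Figure D1:**
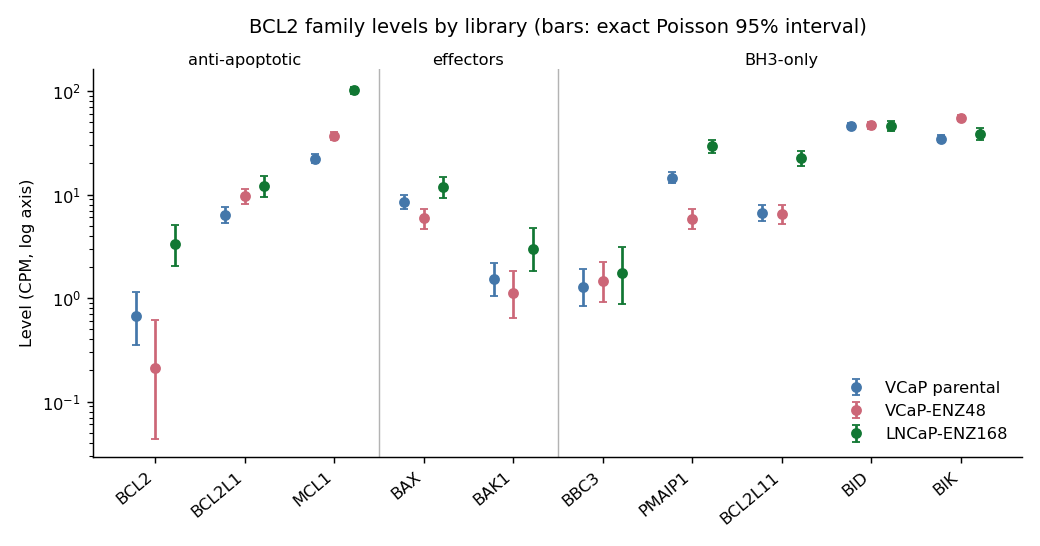
Level of each member in each library in CPM on a log axis, with exact Poisson 95% intervals (counting error only) and genes grouped by role. MCL1 and PMAIP1 are separated in all 3 libraries, while BID lies between 45.7 and 46.7 CPM in each.

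The VCaP libraries set 48 h of enzalutamide against the vehicle within 1 line. A gene was compared where its mean over both libraries was at least 10 CPM, and called higher or lower where CPM + 1 differed at least 1.5-fold. Of the 4 members that passed this minimum, MCL1 and BIK were called higher in VCaP–ENZ48, beside 15.6% of the 7729 genes compared, and PMAIP1 was called lower, beside 17.9%. With so few members, these counts say nothing about the family as a group. The median log2 ratio of (CPM + 1) was 0.34 over the 4 members and −0.07 over all genes compared.

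As plain log2 ratios of CPM with their counting intervals, MCL1 was higher by 0.72 (0.53 to 0.90) and BIK by 0.66 (0.51 to 0.81). PMAIP1 had a log2 ratio of −1.33 (−1.70 to −0.97), and its mean of 10.2 CPM lay just above the minimum. BID differed by 0.03 (−0.12 to 0.18). Among the 138 VCaP parental and 127 VCaP–ENZ48 cells whose barcode ended in a resolved base, the log2 ratios of (CPM + 1) were 0.30 for MCL1, 0.95 for BIK and −2.00 for PMAIP1. MCL1 was not called there, nor was PMAIP1, whose mean then lay below the minimum. The other 6 members were below the minimum and carry no call. Among them BCL2L1 had a log2 ratio of 0.59 (0.23 to 0.95) and BAX of −0.53 (−0.92 to −0.14). For BCL2, BAK1, BBC3 and BCL2L11 the interval included 0. Other library scalings moved the VCaP–ENZ48 to VCaP parental ratios of all genes: under trimmed-mean (TMM) and median-of-ratios scaling the all-gene median shifted by −0.27 and −0.21, the log2 ratio of (CPM + 1) was 0.41 and 0.47 for MCL1 and 0.36 and 0.42 for BIK, neither of which was then called, and BID became negative (−0.25 and −0.20). PMAIP1 was called lower under both, at −1.47 and −1.42, where 10.4% and 11.4% of all genes were called higher and 32.4% and 28.8% lower.

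The other library with the drug, LNCaP–ENZ168, was compared with VCaP–ENZ48. Line and exposure time differ together there and cannot be told apart, and VCaP–ENZ48 serves in both comparisons. Of the 6 members above the minimum, MCL1, PMAIP1 and BCL2L11 were called higher in LNCaP–ENZ168, beside 53.1% of 8854 genes, and 0 were called lower, beside 15%. The all-gene median log2 ratio of (CPM + 1) was 0.65. The log2 ratios of CPM were 1.47 (1.30 to 1.64) for MCL1, 2.34 (1.95 to 2.73) for PMAIP1 and 1.80 (1.41 to 2.19) for BCL2L11. BID had a log2 ratio of −0.03 (−0.23 to 0.17) and BIK of −0.50 (−0.71 to −0.29). BIK was called lower under TMM and median-of-ratios scaling, which shifted the all-gene median by −0.55 and −0.51, beside 25.4% and 24.4% of all genes. With cells weighted equally its log2 ratio of (CPM + 1) was −0.61, and with totals without mitochondrial and ribosomal protein genes −0.74. It was called lower in both, beside 14.8% and 20.3% of all genes. On the same measure, MCL1 was 0.92 and 0.96 under TMM and median-of-ratios scaling, PMAIP1 1.65 and 1.69, and BCL2L11 1.15 and 1.19. These members were still called higher, beside 29.96% and 31.6% of all genes. The log2 ratio of (CPM + 1) for BID was −0.55 under TMM and −0.51 under median-of-ratios scaling. BCL2, with 21 against 3 UMIs, had a log2 ratio of 3.99 (2.24 to 6.38).

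**Figure D2:**
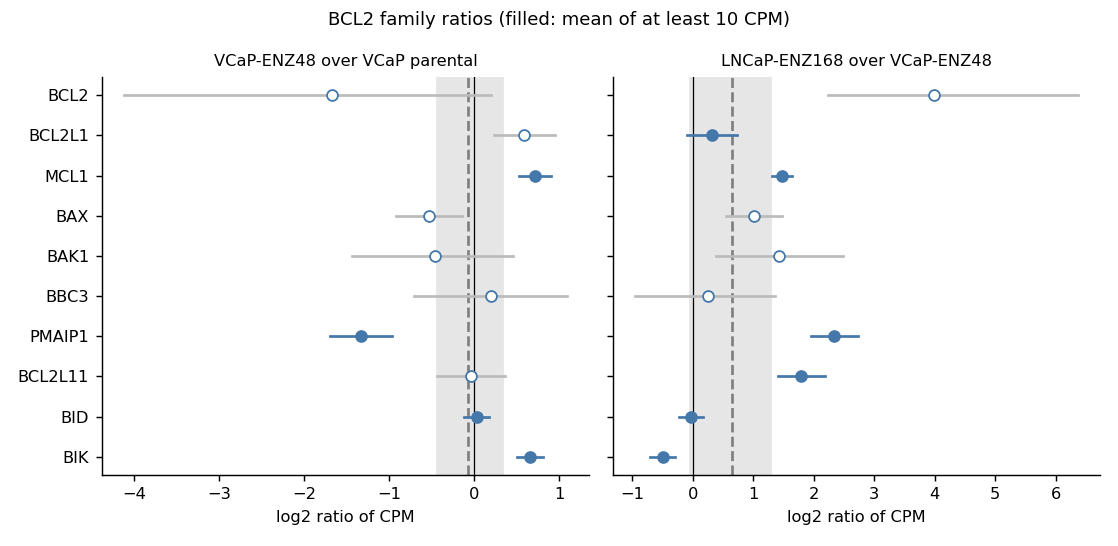
Log2 ratio of CPM for each member with its 95% counting interval, in both comparisons. Filled points had a mean of at least 10 CPM, and the dashed line and grey band give the median and quartiles of log2 ratios of (CPM + 1) over all genes compared, at −0.07 (−0.44 to 0.34) on the left. PMAIP1 lies left of the band on the left and right of it on the right.

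Weighing the sides of the family by transcript counts, VCaP parental had 2201 pro-apoptotic and 573 anti-apoptotic UMIs, a ratio of 3.84 (3.50 to 4.22). VCaP–ENZ48 had 1746 and 665, a ratio of 2.63 (2.40 to 2.88). LNCaP–ENZ168 had 964 and 738, a ratio of 1.31 (1.19 to 1.44). The log2 difference between VCaP–ENZ48 and VCaP parental was −0.55 (−0.74 to −0.36), and −0.30 with barcodes ending in a resolved base. These ratios need no scaling for depth, since both sides come from the same cells, but they count transcripts and not active proteins.

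The sides differed by unequal amounts. Anti-apoptotic transcripts summed to 29.4 CPM in VCaP parental and 46.5 CPM in VCaP–ENZ48, while pro-apoptotic ones summed to 113 and 122 CPM, with intervals that overlapped (108 to 118 and 116 to 128). Within the pro-apoptotic side BIK took 30.7% of UMIs in VCaP parental and 44.8% in VCaP–ENZ48, and PMAIP1 took 12.9% and 4.75%. BID took 40.5% and 38.3%. In LNCaP–ENZ168 the pro-apoptotic side summed to 153 CPM and the anti-apoptotic side to 117 CPM.

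Single pairs differed from one another. The BID to MCL1 ratio was 2.05 in VCaP parental and 1.27 in VCaP–ENZ48. That is a log2 difference of −0.69 (−0.92 to −0.45), beside −0.55 for all members. The PMAIP1 to MCL1 ratio was 0.653 in VCaP parental, 0.158 in VCaP–ENZ48 and 0.289 in LNCaP–ENZ168, a log2 difference of −2.04 (−2.46 to −1.64) between the VCaP libraries. The effectors stood to the anti-apoptotic genes as 0.340, 0.150 and 0.127 in the same order, a log2 difference of −1.18 (−1.58 to −0.78) in VCaP. The BIK to MCL1 ratio was 1.55 in VCaP parental and 1.49 in VCaP–ENZ48, a log2 difference of −0.06 (−0.30 to 0.18). Without BID and MCL1, the pro to anti ratios were 9.49, 7.65 and 6.96. The VCaP log2 difference was then −0.31 (−0.68 to 0.06), an interval that included 0. MCL1 led its side in every library. BID led the pro-apoptotic side in VCaP parental and LNCaP–ENZ168, but BIK led it in VCaP–ENZ48 and was left in.

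**Figure D3:**
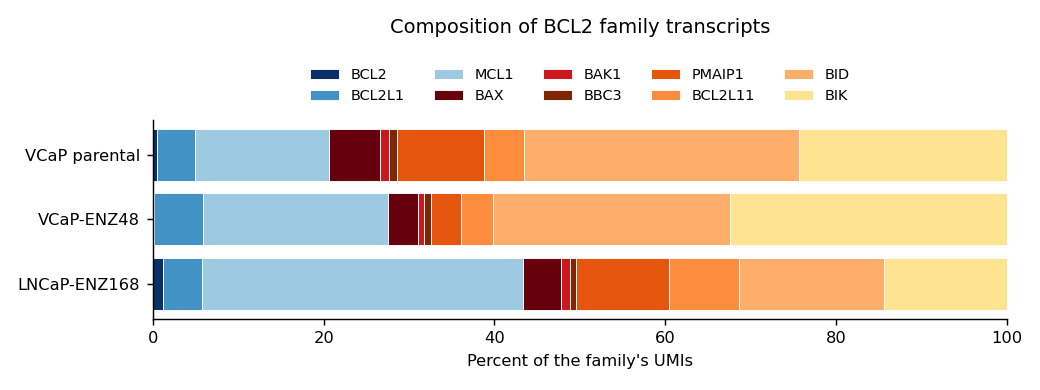
Share of the family's UMIs taken by each member in each library, in percent, with anti-apoptotic genes in blue, effectors in dark red and BH3-only genes in orange to yellow. MCL1 takes 15.7% in VCaP parental, 21.7% in VCaP–ENZ48 and 37.7% in LNCaP–ENZ168.

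Of the kept cells, MCL1 had a UMI in 42.7%, 32.9% and 34.7% for LNCaP–ENZ168, VCaP parental and VCaP–ENZ48, BID in 25.6%, 53.5% and 41.0%, and BIK in 21.0%, 47.4% and 47.4%. Since depth differs, each cell was also thinned at random to 2000 UMIs, which left out 1 cell of LNCaP–ENZ168 and 30 of VCaP–ENZ48. MCL1 was then detected in 20.3%, 4.21% and 7.96% of cells, in the order of its CPM. PMAIP1 was detected in 4.56%, 3.61% and 0.872%, and without thinning in 13.3%, 22.2% and 7.18%. BIK was detected in 6.79%, 6.22% and 11.0% of thinned cells and BID in 7.53%, 9.63% and 9.38%.

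As a background for these shares, the most often detected marker of other cell types was seen in 0.424%, 0.100% and 0.109% of thinned cells, in the same 3 libraries. BCL2, BAK1 and BBC3 lay between 0 and 0.954% of thinned cells, and the counts behind them were 9 cells or fewer per library. For BCL2 in VCaP–ENZ48, 0 of 917 thinned cells held a UMI, beside 7 of 943 in LNCaP–ENZ168. A limit of 3 counts in 917 cells allows a share of up to 0.327% of thinned cells with a UMI, for counting error only. Differences in these 3 genes per cell were not tested.

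Thinned cells with more pro-apoptotic than anti-apoptotic UMIs made up 20.9% (18.3 to 23.6) of LNCaP–ENZ168, 19.5% (17.0 to 22.1) of VCaP parental and 20.5% of VCaP–ENZ48. Cells with more anti-apoptotic UMIs made up 17.9%, 4.71% and 7.52%. Most cells, 57.5%, 74.5% and 70.1%, held neither. A second random thinning gave 23.2% for VCaP parental on the pro-apoptotic side, so a shift of a few percentage points there is within the noise of thinning.

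Because S and G2M transcripts differed so much between the VCaP libraries, the members were also read within each library, in terciles (3 groups of near-equal size) of thinned cells ranked by their S and G2M UMIs. PMAIP1 was higher in the highest than in the lowest tercile of every library. Its level went from 7.14 to 18.4 CPM in VCaP parental, a log2 ratio of 1.36 (0.85 to 1.90), from 18.01 to 49.8 CPM in LNCaP–ENZ168, 1.47 (0.92 to 2.04), and from 4.59 to 8.06 CPM in VCaP–ENZ48, 0.81 (0.05 to 1.60). BID and BIK went the other way in VCaP parental. BID was 59.8, 46.8 and 32.2 CPM from the lowest to the highest tercile, and BIK was 46.7, 33.6 and 24.97 CPM. BID showed no such order in LNCaP–ENZ168 (46.9, 43.8 and 46.6 CPM) or in VCaP–ENZ48 (46.6, 46.4 and 47.7 CPM). BIK was 44.1, 39.0 and 33.1 CPM in LNCaP–ENZ168, with a log2 ratio of the highest to the lowest tercile of −0.41 (−0.88 to 0.05). In VCaP–ENZ48 it was 58.1, 58.0 and 47.5 CPM, with a log2 ratio of −0.29 (−0.55 to −0.04), and in VCaP parental the log2 ratio was −0.90 (−1.19 to −0.62). MCL1 was lower in the highest tercile of LNCaP–ENZ168 (73.6 CPM) than in the lowest (110 CPM), and its intervals overlapped across terciles in both VCaP libraries.

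From the lowest to the highest tercile the pro to anti ratio was 4.71, 4.01 and 2.99 in VCaP parental, 1.14, 0.997 and 2.03 in LNCaP–ENZ168, and 2.77, 2.64 and 2.48 in VCaP–ENZ48. The log2 difference of the highest from the lowest tercile was −0.66 (−0.997 to −0.318) in VCaP parental, 0.83 (0.48 to 1.19) in LNCaP–ENZ168 and −0.16 (−0.47 to 0.16) in VCaP–ENZ48, where the interval included 0. The terciles are not matched between libraries, since the highest tercile of VCaP–ENZ48 had a median of 6 S and G2M UMIs, the same as the lowest tercile of VCaP parental.

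**Figure D4:**
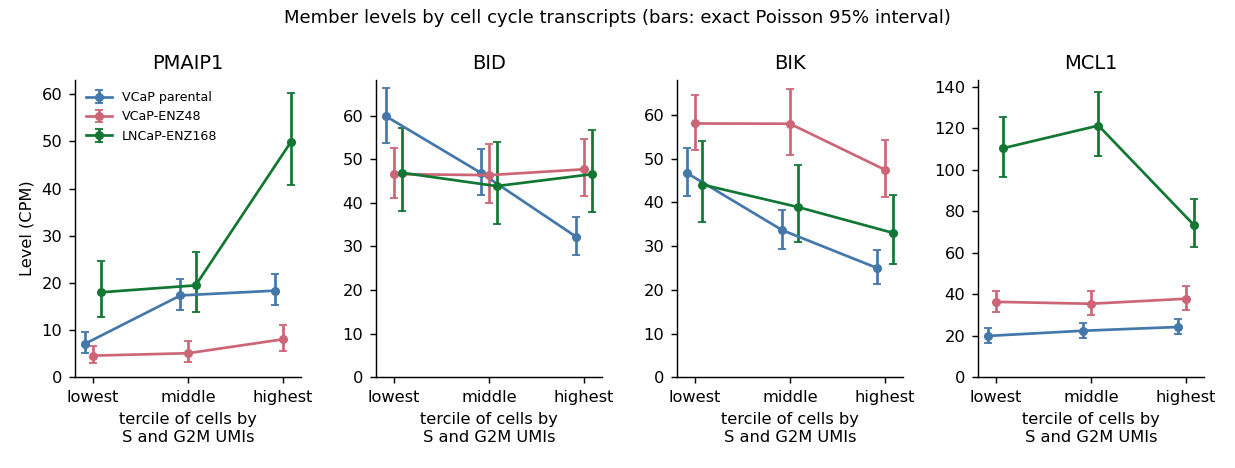
Level of 4 members in CPM, with exact Poisson 95% intervals, in terciles of the cells of each library ranked by S and G2M UMIs. PMAIP1 is higher in the highest tercile in all 3 libraries, and BID and BIK decline across the terciles of VCaP parental.

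Cells with at most 8 S and G2M UMIs after thinning, here called low-cycling cells, allow a closer match, which need not be full. They were 274 of 997 thinned cells in VCaP parental, 837 of 917 in VCaP–ENZ48 and 610 of 943 in LNCaP–ENZ168. The S and G2M transcripts left in them were not compared between libraries. Among them PMAIP1 was 7.14 CPM (4.98 to 9.93) in VCaP parental and 4.50 CPM (3.42 to 5.82) in VCaP–ENZ48, a log2 ratio of −0.67 (−1.29 to −0.02), beside −1.33 over all cells. BIK was 49.8 CPM and 56.3 CPM, with a log2 ratio of 0.18 (−0.03 to 0.39) whose interval included 0. BID was 59.4 CPM and 47.1 CPM, a log2 ratio of −0.34 (−0.54 to −0.13), beside 0.03 over all cells. MCL1 was 20.8 CPM and 36.3 CPM, and its log2 ratio of 0.80 (0.49 to 1.13) was as large as over all cells. The log2 difference in the pro to anti ratio was −0.80 (−1.11 to −0.50). How much of each member's difference comes from the share of cycling cells was not tested further.

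Mitochondrial share and depth moved with some members too. Across terciles of mitochondrial UMI share, from lowest to highest, MCL1 was 125, 94.1 and 79.9 CPM in LNCaP–ENZ168 and 46.4, 29.2 and 34.4 CPM in VCaP–ENZ48, and PMAIP1 was 41.0, 21.0 and 24.0 CPM in LNCaP–ENZ168. BID stayed between 44.5 and 48.0 CPM in VCaP–ENZ48 across these terciles. Across terciles of depth, from lowest to highest, PMAIP1 was 18.8, 14.1 and 13.0 CPM in VCaP parental, 22.5, 35.0 and 28.8 CPM in LNCaP–ENZ168 and 3.43, 6.30 and 6.02 CPM in VCaP–ENZ48. BAX in VCaP–ENZ48 was 1.37 CPM (0.17 to 4.95), 5.75 CPM and 6.67 CPM (5.10 to 8.57). Their part in the differences between libraries was not tested.

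Around the members, 75 further apoptosis and stress genes were read as 8 lists. In VCaP–ENZ48 against VCaP parental, 46 passed the minimum, 3 were called higher (BOK, TP53INP1 and ATF4) and 10 were called lower. These are 6.52% and 21.7% of the 46, beside 15.6% and 17.9% of all genes. Under TMM scaling 18 of 47 were called lower and 3 higher (38.3% and 6.38%), beside 32.4% and 10.4% of all genes. Under median-of-ratios scaling 17 of 47 were lower and 3 higher (36.2% and 6.38%), beside 28.8% and 11.4%. Among other family genes 1 of 6 was higher and 1 lower. BOK, a relative of BAX and BAK, was 10.7 CPM in VCaP parental and 20.6 CPM in VCaP–ENZ48, and BNIP2 was 13.8 and 7.62 CPM. BAD, a BH3-only gene, was more abundant than any member in the VCaP libraries, at 387 and 355 CPM, beside 79.8 CPM in LNCaP–ENZ168. With BAD and the other classified relatives added, the pro to anti ratios became 13.1, 8.63 and 1.84 for VCaP parental, VCaP–ENZ48 and LNCaP–ENZ168, the same order as for the members. BAD alone supplied most of the added pro-apoptotic UMIs. It had 7554, 5070 and 504 in the same order, beside 209, 294 and 113 for BOK. BNIP3L, a mitophagy receptor, was 339 CPM in LNCaP–ENZ168 and had 1 and 4 UMIs in the VCaP libraries, while its relative BNIP3 was between 235 and 326 CPM in all 3. BNIP3 was called lower in VCaP–ENZ48 under TMM and median-of-ratios scaling and in low-cycling cells, with log2 ratios of (CPM + 1) of −0.76, −0.70 and −0.69.

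Downstream of the pores, 3 of 7 apoptosome and caspase genes were called lower in VCaP–ENZ48 and 0 higher, CYCS and AIFM1 among the former. CYCS, the gene of cytochrome c, was 742 CPM in VCaP parental and 241 CPM in VCaP–ENZ48, and AIFM1 106 and 68.0 CPM. AIFM1 lost its call with totals without mitochondrial and ribosomal protein genes, at a log2 ratio of −0.51, and with barcodes ending in a resolved base, at −0.49. HTRA2 was 29.2 and 28.2 CPM. Of 4 inhibitor of apoptosis genes only BIRC5, survivin, which is also a G2M gene, was called lower, at 264 and 22.5 CPM. Its log2 ratio of (CPM + 1) was −3.49 over all cells and −2.40 in low-cycling cells. XIAP was 45.1 and 44.1 CPM and BIRC2 33.6 and 28.9 CPM. Of 5 death receptor pathway genes FAS was called lower, at 56.5 and 8.88 CPM, beside 43.5 and 35.0 CPM for CFLAR, 24.4 and 23.2 CPM for CASP8, which cleaves BID, and 18.4 and 24.1 CPM for the ligand gene TNFSF10. None of the 3 outer membrane channel genes (VDAC1, VDAC2 and VDAC3, at 110 to 282 CPM) and none of the 7 turnover and partner genes was called, TPT1, BECN1, MARCHF5 and BAG1 among them.

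Of the p53 target genes, a group to which PMAIP1, BBC3 and BAX also belong, 10 passed the minimum, with 1 higher and 3 lower. TP53INP1 was 92.3 CPM in VCaP parental and 212 CPM in VCaP–ENZ48, and PERP 95.2 and 118 CPM. The lower genes were AEN at 19.1 and 6.57 CPM, MDM2 at 81.3 and 43.0 CPM and CCNG1 at 77.4 and 51.1 CPM. In low-cycling cells AEN and MDM2 were not called lower. CCNG1 lost its call with at most 15% mitochondrial UMIs and without barcodes above 3 times the median depth. It also lost its call with totals without mitochondrial and ribosomal protein genes. Of 4 genes of the integrated stress response, ATF4 was called higher (96.0 and 187 CPM) and ATF3 lower (48.5 and 14.7 CPM), while DDIT3 was 95.6 and 93.8 CPM. The list medians of log2 ratios of (CPM + 1) ranged from −0.55 for the apoptosome and caspases to 0.03 for turnover and partners. In LNCaP–ENZ168 against VCaP–ENZ48, 38 of 57 genes on these lists were called higher and 3 lower (66.7% and 5.26%), beside 53.1% and 15% of all genes. Under TMM scaling 22 of 53 were higher and 5 lower (41.5% and 9.43%), beside 29.96% and 25.4% of all genes.

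**Figure D5:**
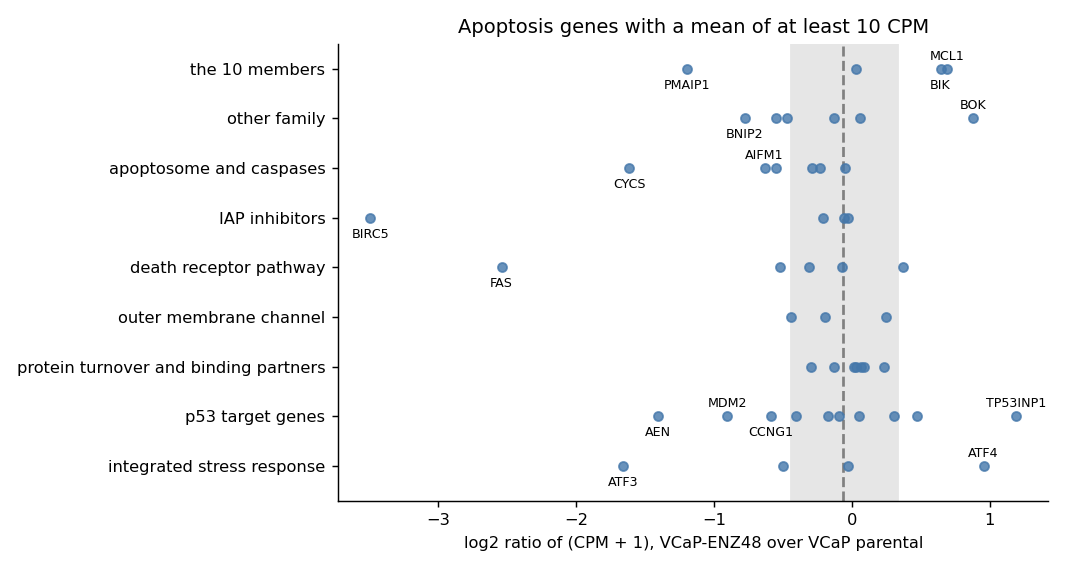
Log2 ratio of (CPM + 1), VCaP–ENZ48 over VCaP parental, for members and for 8 lists of related genes, each at 10 CPM or more on average, 1 point per gene reported. The grey band and dashed line are the quartiles and median of all genes compared, and genes beyond 1.5-fold are named, with BIRC5 at −3.49 and FAS at −2.54 farthest left.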

How the data were processed

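Drop-seq libraries of LNCaP–ENZ168, VCaP parental and VCaP–ENZ48 were used, 1 per group. Per the methods of the study, the authors aligned reads to GRCh38 with STAR in the Drop-seq tools pipeline and deposited UMI counts per gene and barcode, not normalized. The tables hold 1000 barcodes each, the number of cells the pipeline was set to expect. The study filtered its single-cell samples on genes, molecules and mitochondrial share with limits set per sample. Those for these 3 libraries are not given in the sources used here. Here, barcodes with 300 or more genes, 500 or more UMIs and a mitochondrial share up to 25% were kept, no doublet caller was run, and barcodes above 3 times the median depth were left out as an alternative. UMIs were summed per library and divided by total UMIs to give CPM. Since the design has 1 library per group, no count model was fitted. Intervals are exact 95% Poisson, Clopper-Pearson or conditional binomial. Thinning used a fixed seed. Cell cycle genes came from Seurat 5.3.0, TMM factors from edgeR 4.0.16 in R 4.3.3, and the rest was computed in Python 3.11.15 with scipy 1.17.1. The interval code was tested on simulated data. Gene positions came from a later GENCODE release on GRCh38, and promoters from RefSeq.

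The members and lists were chosen with earlier results of these data known. All 10 members were named, and from each other list the 3 genes with the highest mean CPM and those with the largest rise and fall between the VCaP libraries, except that a few listed genes are counted but not reported here by name. The promoters shown, MDM2, the splits into terciles and the single gene ratios were chosen for display after values were seen. Alternatives covered cell filters, scaling, pseudocount, expression minimum, fold, thinning depth and the genes in the ratio.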

Additional observations from a re-analysis of the deposited data

How the results depend on the processing

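No paired analysis was possible because there was only 1 library in a group. For VCaP–ENZ48 against VCaP parental, 2 members were called higher in the report. The count was 1 with barcodes ending in a resolved base and in low-cycling cells, beside 16.5% and 13.4% of all genes. It was 0 under TMM scaling, median-of-ratios scaling, a mean of at least 50 CPM and a 2-fold limit, beside 10.4%, 11.4%, 9.58% and 8.19%. It was 3 with totals without mitochondrial and ribosomal protein genes, beside 22.5%. There BCL2L1 passed the minimum and was also called, at a log2 ratio of (CPM + 1) of 0.66. The count called lower, 1 in the report, was 0 without barcodes above 3 times the median depth, with barcodes ending in a base, in low-cycling cells, with cells weighted equally and at a mean of 50 CPM, since PMAIP1 then fell below the minimum. In low-cycling cells its log2 ratio of (CPM + 1), −0.56, was also short of 1.5-fold. The shares of all genes called lower in these settings, in the order given, were 18.8%, 18.5%, 13.3%, 19.3% and 24.8%. The member median log2 ratio was 0.68 without deep barcodes, 0.17 in low-cycling cells, 0.60 with cells weighted equally, 0.054 under TMM, 0.11 under median-of-ratios, 0.66 without mitochondrial and ribosomal protein genes and 0.031 at a mean of at least 1 CPM or of 5 CPM, the last chosen after seeing the data. No member passed 50 CPM, so no median was had there. The pro to anti ratio was 1.099 in low-cycling cells of LNCaP–ENZ168, 3.48 with barcodes ending in a base and 4.64 in low-cycling cells of VCaP parental. Without BID and MCL1 it was 6.96, 9.49 and 7.65 for LNCaP–ENZ168, VCaP parental and VCaP–ENZ48, and with relatives added 1.84, 13.1 and 8.63. Its VCaP log2 difference was −0.30 with barcodes ending in a base, −0.80 in low-cycling cells and −0.31 without BID and MCL1. The share of thinned cells with more pro-apoptotic UMIs was 12.2%, 10.1% and 11.5% at 1000 UMIs and 32.97%, 33.2% and 34.7% at 4000 UMIs for LNCaP–ENZ168, VCaP parental and VCaP–ENZ48, and 23.2% in VCaP parental with another seed. Except where the construction shows it, the cause was not tested. No called member ratio changed sign under these alternatives. At these depths BCL2, BAK1 and BBC3 had at most 30 UMIs per library.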
